A study of Homo sapiens with 26 samples.

Results

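The NADPH-producing enzymes described here are 8 genes, PGLS, PGD, RPIA, TKT, TALDO1, ME1, IDH1 and IDH2, read in 786-O cells, a human clear cell renal carcinoma line. The genes were taken as a named list, and every probe set that the platform annotation assigns to 1 of them alone was used. The list covers 8 of the 15124 genes kept by the filter, through 20 probe sets, of which 19 passed it. The filter lies near the lower limit of the signals, so a kept probe set may be barely detected. No probe set named one of these genes together with another gene.

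RNA was measured on 26 Affymetrix U133 Plus 2.0 arrays in a study of small molecules that inhibit translation of HIF-2a, the transcription factor that 786-O cells accumulate because they lack functional VHL. The tested groups were compounds 40, 41, 76 and 77, each on 3 arrays, and the vehicle group was DMSO, also on 3 arrays. A group titled Blk, with 3 arrays, was taken as the untreated cells by elimination. The compounds are known here by these numbers only, and the labels state neither dose nor treatment time, so differences between compounds cannot be told apart from differences in dose or time. WT8 and PRC3, with 3 arrays each, carry names widely used for 786-O sublines with wild-type VHL and with an empty vector, which the labels do not state. Single arrays titled pTR and pTV have no stated meaning. All groups share the one tumour line and, apart from a possible VHL transgene in WT8, its VHL deficiency. Whether the 3 arrays of each group were separate cultures is not stated, and p-values here measure array-to-array spread that may be technical.

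NADPH is the electron donor that cells spend on reducing oxidised glutathione and thioredoxin and on building fatty acids and sterols. The oxidative branch of the pentose phosphate pathway makes it from glucose 6-phosphate: PGLS opens the lactone formed by the first dehydrogenase, and PGD, the second dehydrogenase, yields NADPH and ribulose 5-phosphate. The non-oxidative branch makes no NADPH itself. RPIA converts ribulose 5-phosphate to ribose 5-phosphate, and TKT and TALDO1 return pentoses to glycolysis, which lets carbon pass through the oxidative branch again. Outside that pathway NADPH comes from ME1, the cytosolic malic enzyme, from IDH1, the cytosolic and peroxisomal isocitrate dehydrogenase, and from IDH2, its mitochondrial counterpart. In human cells PGD, TKT, TALDO1 and ME1 are among known targets of NRF2, a transcription factor that binds antioxidant response elements under oxidative stress. This list may not be complete, whether the other genes are targets was not examined, and the part of NRF2 in the results was not tested.

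The promoters of the 8 genes were searched for the core of the antioxidant response element because the results below divide these genes. The windows, from RefSeq on GRCh38.p14, ran from 250 bases before to 50 bases after an annotated start and were 300 bases long, and the 8 genes had 9 of them. The letters TGACNNNGC, searched on both strands, were found in 3 of the 8 genes and 3 of the 9 windows, against 13.3% of 35116 windows of all genes. Each match is printed with 10 bases on either side on the strand that carries it, 5′ to 3′, with the match in capitals.
PGD, chr1:10398853-10398881, minus strand: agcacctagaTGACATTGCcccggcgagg
ME1, chr6:83431170-83431198, minus strand: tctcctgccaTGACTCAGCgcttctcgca
IDH1, chr2:208255196-208255224, minus strand: cccctctcgcTGACTCCGCccatcccacg
The nearest base of the match lay 193 bases before the annotated start of its window in PGD, 129 in ME1 and 135 in IDH1. TKT, TALDO1, PGLS, RPIA and IDH2 had no match in these windows, which says nothing about sites elsewhere. The hypoxia response core ACGTG was found in 2 of the 8 genes, PGD and IDH1, against 21.4% of all windows. In IDH1 it lay in another window than the TGACNNNGC match, before a different annotated start.

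Signals were quantile normalised and are in arbitrary units, with a floor of 20. They compare one probe set between arrays and do not rank genes against each other. Array trimmed means were 80.1 to 95.5 before normalisation. PAX8, a renal lineage factor, measured 761 to 1329 and VIM, the intermediate filament of mesenchymal and renal carcinoma cells, 7208 to 8708, among 7 of 8 renal markers measured, of which LHX1 was at 20.0 to 44.4. Of the leukocyte markers PTPRC and CD14 were at the floor on all 26 arrays and CD3E on 19, with at most 31.1. Of the endothelial markers VWF was at the floor on all 26 arrays and CDH5 on 25, while PECAM1 measured 45.5 to 117. The fibroblast markers COL1A1, DCN and LUM measured 30.3 to 145, 20.0 to 45.7 and 20.0 to 113. Summed, these 3 ran from 75.0 to 148 with compound 40, 146 to 171 with 41, 141 to 184 with 76 and 141 to 163 with 77, against 154 to 208 with DMSO, and from 230 to 263 in WT8, against 150 to 180 in PRC3 and 99.2 to 162 in Blk. Their part in the results was not tested.

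Some arrays stood apart. Compound 40 replicates 2 and 3 held 54613 distinct values each, against 5589 to 7809 on the other 24 arrays, so their deposited columns were made another way. On WT8 replicate 3 the 3′ probe set of ACTB was 2.37 times as bright as the 5′ one and that of GAPDH 1.32 times, a sign of RNA degradation. The remaining 25 arrays reached no more than 1.39 and 1.06.

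Each gene was read from its brightest probe set, in a fit without replicate blocks. PGD and ME1 rose with compounds 40, 41 and 76, TALDO1 with 40 and 41, and TKT with 40, by 1.41-fold to 2.96-fold over DMSO. In blocked fits given below TALDO1 was also called higher with 76, and TKT with 41 and 76. The dimmest TKT probe set was called higher with 41 and 76 and not with 40. PGLS, RPIA, IDH1 and IDH2 did not pass the test with any compound, apart from IDH2 in a blocked fit given below. With compound 77 none of the 8 passed. The test was limma across all 35013 probe sets above the filter, with p-values adjusted by Benjamini-Hochberg and called below 0.05.

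With compound 40, 4 of the 8 genes were called higher and 0 lower, while 0.34% of all probe sets were called higher and 0.685% in either direction. With compound 41 the counts were 3 higher and 0 lower, against 1.17% of all probe sets called higher and 2.54% either way. With compound 76 they were 2 higher and 0 lower, against 0.748% higher and 1.35% either way, and with compound 77 they were 0 and 0, against 0.123% higher, 0.0486% lower and 0.171% either way. With all arrays 240, 889, 474 and 60 probe sets were called with compounds 40, 41, 76 and 77. Leaving out one array at a time gave 50 to 622 with compound 40, 419 to 685 with 41, 226 to 381 with 76 and 15 to 125 with 77. The median log2 difference over the 8 genes was 0.27 with compound 40, 0.25 with 41, 0.11 with 76 and -0.082 with 77, where the median of all probe sets was 0. The shares count probe sets, while the counts take 1 probe set for each gene. Of the 19 kept probe sets of the 8 genes, 4 were called higher and 0 lower with each of compounds 40, 41 and 76. With compound 77 it was 0 and 0. These 4 comparisons share the same DMSO arrays.

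**Figure D1:**
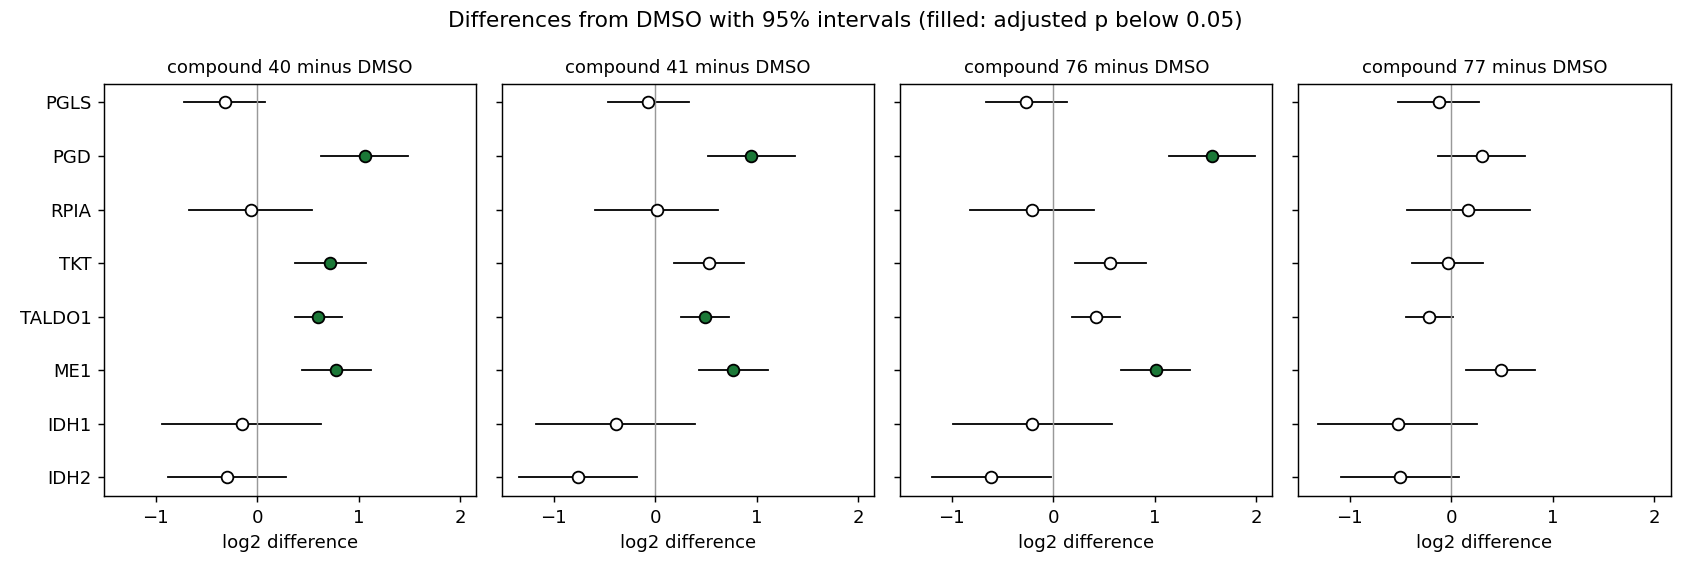
Log2 difference from DMSO for each of the 8 genes (rows) with compounds 40, 41, 76 and 77 (panels), in log2 units, with 95% intervals from limma. Filled points have an adjusted p below 0.05: 4 genes with compound 40, 3 with 41, 2 with 76 and 0 with 77.

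PGD, the NADPH-yielding dehydrogenase of the oxidative branch, had the largest difference from DMSO with compounds 40, 41 and 76 when each of the 8 genes is read from its brightest probe set. Its signal was 1408, 1556 and 1464 with compound 40, 1380, 1351 and 1364 with compound 41, 2108, 2009 and 2170 with compound 76, and 970, 823 and 828 with compound 77, against 816, 629 and 692 with DMSO. All 12 compound arrays lay above all 3 DMSO arrays, and the arrays of compounds 40, 41, 76 and 77 did not overlap one another. Relative to DMSO, PGD rose by 1.06 (SE 0.21) on the log2 scale with compound 40, adjusted p = 0.0145 in limma. It rose by 0.95 with compound 41, adjusted p = 0.0114 in limma, and by 1.57, or 2.96-fold, with compound 76, adjusted p = 7.9e-05. With compound 77 the log2 difference was 0.30 with a 95% interval from -0.13 to 0.73, adjusted p = 0.820 in limma.

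The call for compound 76 held in 6 of 6 fits that left out one array and under 10 of 10 other settings. The call for compound 41 was lost without compound 41 replicate 1 or DMSO replicate 2, where the log2 difference stayed between 0.86 and 1.05. The call for compound 40 was lost without compound 40 replicate 2, DMSO replicate 2 or DMSO replicate 3, and with compound 40 replicate 1 as its only array the log2 difference was 0.99, adjusted p = 0.393 in limma. Both other PGD probe sets were near the floor, at 20.0 to 44.2 on the 26 arrays, and were not called in any comparison.

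PGLS, the lactonase one step before PGD, did not pass the test. It measured 381, 258 and 330 with compound 40, 418, 321 and 404 with compound 41, 405, 294 and 303 with compound 76, and 378, 351 and 364 with compound 77, against 434, 372 and 389 with DMSO. The groups overlapped, and the log2 differences from DMSO were -0.32, -0.070, -0.27 and -0.13, each with SE 0.19 and adjusted p of 0.55 or above in limma. The 95% interval with compound 76 ran from -0.67 to 0.13, below the PGD interval of 1.14 to 1.99 with the same compound. In all 8 groups replicate 1 had the highest PGLS signal.

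TKT, the transketolase of the non-oxidative branch, was brightest with compounds 40, 41 and 76. Its brightest probe set measured 2416, 2523 and 2812 with compound 40, 2241, 2225 and 2322 with compound 41, 2978, 1740 and 2374 with compound 76, and 1545, 1393 and 1644 with compound 77, against 1779, 1424 and 1508 with DMSO. The arrays of compounds 40 and 41 lay above all DMSO arrays, 1 compound 76 array did not, and those of compound 77 overlapped DMSO. TKT rose with compound 40, by 0.72 (SE 0.17) on the log2 scale, adjusted p = 0.042 in limma, a call kept in 1 of 6 fits that left out one array. The log2 differences of 0.53 with compound 41 and 0.56 with compound 76 did not pass, with adjusted p = 0.10 and 0.114 in limma. The difference with compound 77 was -0.037 on the log2 scale.

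The other TKT probe sets did not give the same order. The dimmest measured 137, 138 and 117 with compound 40, 315, 260 and 254 with compound 41, 204, 202 and 221 with compound 76, and 97.0, 110 and 95.7 with compound 77, against 84.8, 107 and 81.9 with DMSO. Compounds 41 and 76 stood highest here, above compound 40. This probe set rose 3.03-fold with compound 41, adjusted p = 3.5e-05 in limma, and 2.30-fold with compound 76, adjusted p = 0.00145. With compound 40 the difference was 1.44-fold, adjusted p = 0.275 in limma. The second brightest differed from DMSO by 0.45, 0.42, 0.45 and -0.15 on the log2 scale with compounds 40, 41, 76 and 77 and was not called. The annotation used here does not say which transcripts each probe set reads.

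**Figure D2:**
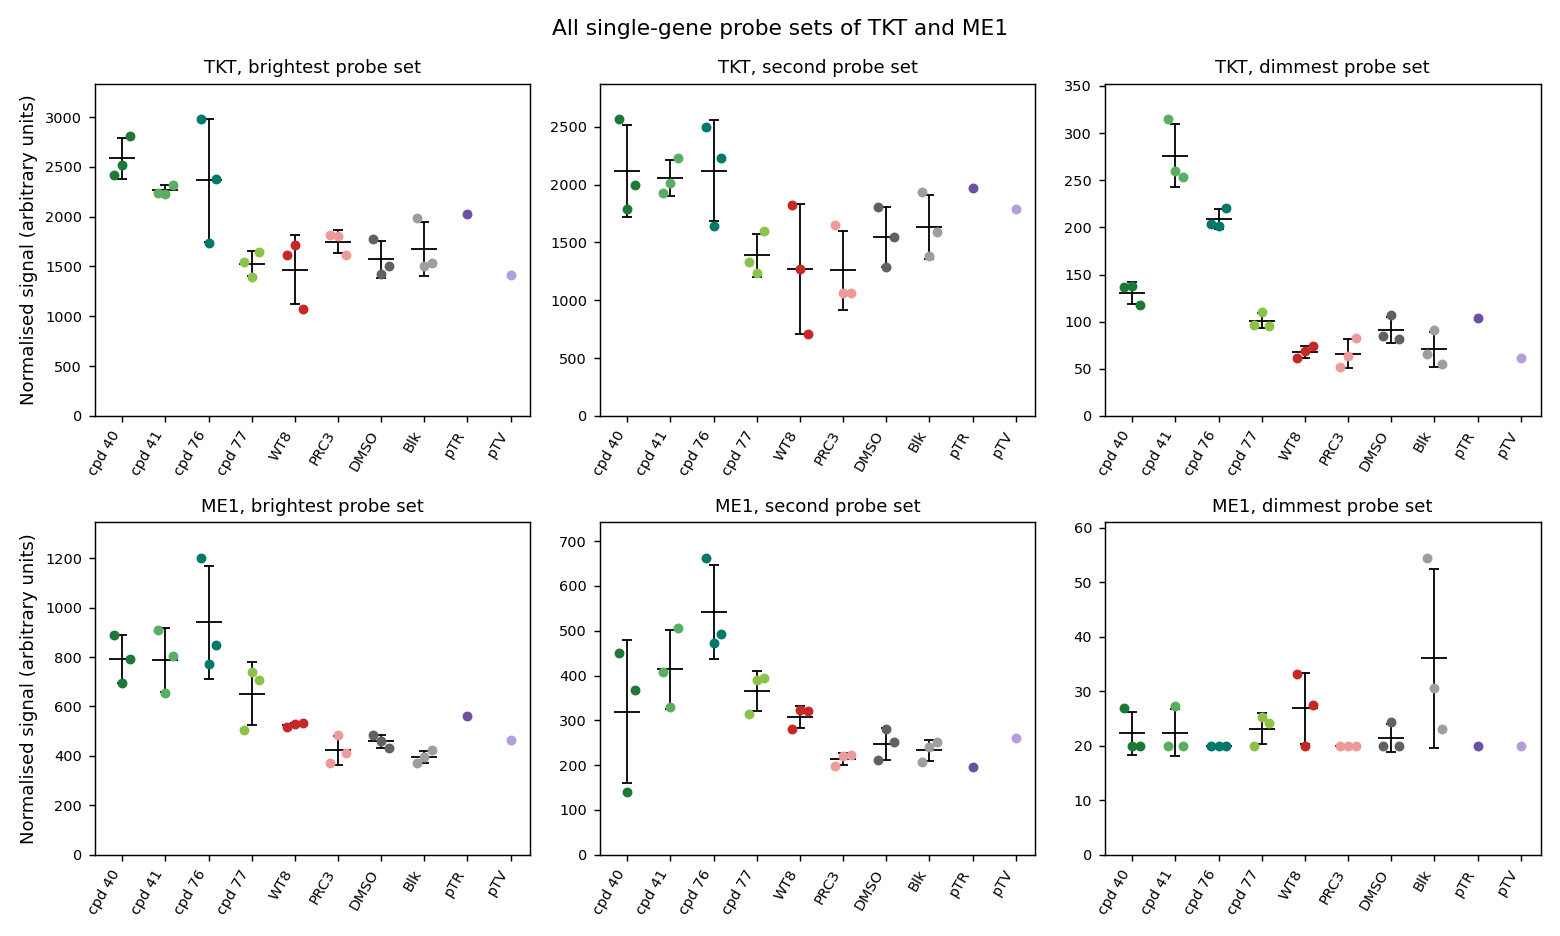
Normalised signal (arbitrary units, each axis from 0) of the 3 TKT and 3 ME1 probe sets in each group, with points for arrays, dashes and bars for mean ± SD of 3 arrays, and single points for pTR and pTV. For TKT, compound 40 is the highest group on the brightest probe set, at a mean of 2584, and compound 41 on the dimmest, at a mean of 276.

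TALDO1, the transaldolase that works beside TKT, had the smallest spread of the 8 genes, with a pooled within-group SD of 0.13 on the log2 scale. Its signal was 1846, 2712 and 2279 with compound 40, 2192, 1979 and 2088 with compound 41, 1863, 2062 and 2038 with compound 76, and 1278, 1265 and 1284 with compound 77, against 1568, 1329 and 1562 with DMSO. Every array of compounds 40, 41 and 76 was above every DMSO array, and every compound 77 array was below. TALDO1 rose 1.52-fold with compound 40, adjusted p = 0.0115 in limma, and 1.41-fold with compound 41, adjusted p = 0.0168. With compound 76 the log2 difference of 0.42 had an adjusted p of 0.0666 in limma, and with compound 77 it was -0.22 with an adjusted p of 0.704. The compound 40 rise rests on its replicates 2 and 3. With replicate 1 alone the log2 difference was 0.32 in place of 0.60, adjusted p = 0.691 in limma. The compound 41 call was lost in 3 of 6 fits that left out one array, without compound 41 replicate 1 or 3 or DMSO replicate 2.

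RPIA, the isomerase that yields ribose 5-phosphate, did not pass the test either. It measured 119, 231 and 186 with compound 40, 172, 215 and 162 with compound 41, 128, 224 and 130 with compound 76, and 199, 207 and 200 with compound 77, against 131, 267 and 166 with DMSO. The groups overlapped throughout. The log2 differences from DMSO lay between -0.21 with compound 76 and 0.17 with compound 77, with SE 0.29. The 95% interval with compound 40 ran from -0.67 to 0.55, wider than that of TALDO1, 0.37 to 0.84.

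ME1, the cytosolic malic enzyme, was the other gene called with 3 compounds in the fit without blocks. Its brightest probe set measured 890, 694 and 792 with compound 40, 910, 653 and 804 with compound 41, 1201, 771 and 849 with compound 76, and 504, 739 and 709 with compound 77, against 484, 461 and 433 with DMSO. All 12 compound arrays exceeded all DMSO arrays. ME1 rose 1.72-fold with compound 40, adjusted p = 0.0232 in limma, 1.71-fold with compound 41, adjusted p = 0.00953, and 2.01-fold with compound 76, adjusted p = 0.00105. With compound 77 the difference was 1.40-fold, adjusted p = 0.379 in limma. The call for compound 76 held in 6 of 6 fits that left out one array and the call for compound 40 in 1 of 6. The call for compound 41 was lost without compound 41 replicate 1.

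A second ME1 probe set measured 449, 141 and 368 with compound 40, 407, 329 and 505 with compound 41, 662, 472 and 492 with compound 76, and 314, 391 and 393 with compound 77, against 211, 281 and 251 with DMSO. Compound 40 replicate 2 was below all DMSO arrays on it. It was called with compound 76, at 2.18-fold and adjusted p = 0.0337 in limma, and with no other compound. The third ME1 probe set was at the floor on 16 of 26 arrays.

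Neither NADP-dependent isocitrate dehydrogenase passed the test with any compound when replicate numbers were not used. IDH2 was called lower with compounds 41 and 76 in one of the 2 fits that blocked on the number, at adjusted p of 0.00113 and 0.0111 in limma. IDH2, the mitochondrial form, measured 397, 299 and 410 with compound 40, 229, 260 and 312 with compound 41, 269, 285 and 333 with compound 76, and 337, 260 and 360 with compound 77, against 559, 342 and 472 with DMSO. Every array of compounds 41 and 76 lay below every DMSO array, while those of compounds 40 and 77 overlapped DMSO. The log2 differences were -0.30 with compound 40, -0.76 with 41, -0.61 with 76 and -0.50 with 77, with SE 0.28, and none passed, with adjusted p of 0.188 or above in limma. The dim second probe set differed by -0.54, -0.73, -0.31 and -0.53 and was not called either.

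IDH1, the cytosolic form, was the most variable of the 8, with a pooled within-group SD of 0.546 on the log2 scale. It measured 1207, 606 and 844 with compound 40, 766, 570 and 868 with compound 41, 1384, 531 and 747 with compound 76, and 940, 504 and 597 with compound 77, against 1216, 731 and 954 with DMSO. The spread followed the replicate number: replicate 1 was the highest in 7 of 8 groups. A second probe set gave 1234, 390 and 864 with compound 40 and 1446, 502 and 752 with compound 76, against 1257, 813 and 877 with DMSO. The log2 differences of IDH1 from DMSO were -0.15, -0.39, -0.21 and -0.53 with compounds 40, 41, 76 and 77, with SE 0.38, and none was called.

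**Figure D3:**
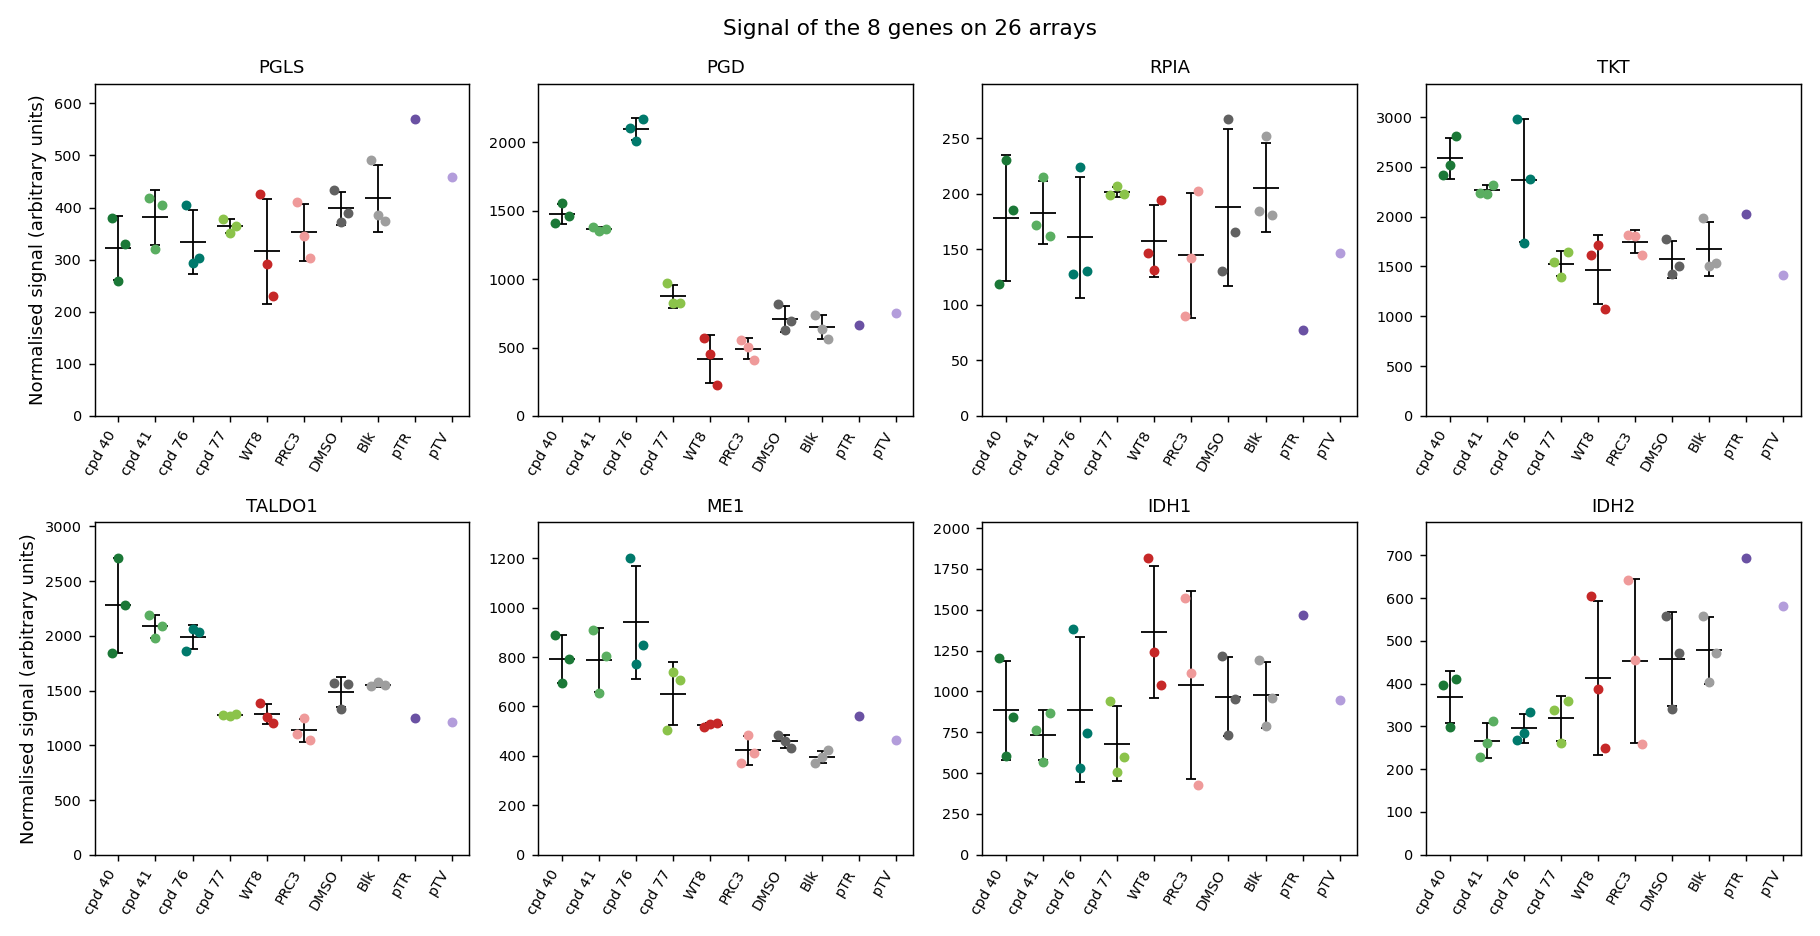
Normalised signal (arbitrary units, each axis from 0) of the 8 genes on all 26 arrays, with points for arrays in order of replicate number and dashes and bars for mean ± SD of 3 arrays. pTR and pTV are single arrays. PGD at 2009 to 2170 with compound 76 stands above every other group, and IDH1 spreads widely within groups, from 531 to 1384 with compound 76.

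Arrays with the same replicate number deviated together for compounds 41 and 76 and DMSO, so the fits were repeated with the number as a block. With 1 block for all 24 arrays, TALDO1 with compound 76 was called at an adjusted p of 0.0462 in limma, and no other call of the 8 genes changed with compounds 41 and 76. With separate blocks for the sublines and for the other 6 groups, a setting chosen after seeing the data, 5 of the 8 genes were called with each of compounds 41 and 76, while all probe sets called came to 6.67% with 41 and 3.99% with 76. IDH2 then fell by 0.76 (SE 0.14) on the log2 scale with compound 41, adjusted p = 0.00113, and by 0.61 with compound 76, adjusted p = 0.0111 in limma. TKT was called higher with compounds 41 and 76 at adjusted p of 0.0116 and 0.0115 in limma, and TALDO1 with compound 76 at 0.0255. IDH1 stayed above the threshold, at adjusted p of 0.25 and 0.681 in limma.

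The compounds were set against each other in 6 pairs, each adjusted over all probe sets. Of 48 gene and pair combinations 5 were called, and each of the 5 had compound 77 as the lower member. TALDO1 was lower with compound 77 than with compound 40, by 0.82 on the log2 scale, at an adjusted p of 8.68e-04 in limma. It was 1.63-fold higher with compound 41 than with compound 77, adjusted p = 0.00165 in limma, and 1.56-fold higher with compound 76 than with compound 77, adjusted p = 0.00573. PGD was 2.40-fold higher with compound 76 than with compound 77, adjusted p = 0.00223 in limma. TKT was lower with compound 77 than with compound 40, with a log2 difference of -0.76 and an adjusted p of 0.041 in limma. All probe sets were called at 0.44% for compound 77 against 40, 0.451% for 41 against 77 and 0.474% for 76 against 77.

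Among compounds 40, 41 and 76 no difference in the 8 genes passed the test, and the background was 0.591% for 41 against 40, 0.126% for 76 against 40 and 0.111% for 41 against 76. PGD was 0.62 lower on the log2 scale with compound 41 than with compound 76, with a 95% interval from -1.04 to -0.19 and an adjusted p of 0.548 in limma. PGD with compound 76 exceeded that with compound 40 by 0.51, with an interval from 0.079 to 0.93. For ME1 the interval of the difference was -0.58 to 0.10 for compound 41 against 76 and -0.35 to 0.33 for 41 against 40, on the log2 scale. The dimmest TKT probe set was 2.11-fold higher with compound 41 than with compound 40, adjusted p = 0.0132 in limma.

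WT8 was set against PRC3, the comparison that the names read as VHL-restored against VHL-deficient cells. None of the 8 genes was called, while 4.56% of all probe sets were, 2.35% higher and 2.21% lower, and the median log2 difference over the 8 was 0.027. ME1 measured 518, 528 and 532 in WT8, against 369, 486 and 413 in PRC3. The groups did not overlap, and the log2 difference of 0.33 had an adjusted p of 0.351 in limma. A second ME1 probe set measured 280, 324 and 321 in WT8, against 198, 221 and 222 in PRC3, and was not called either. IDH1 measured 1817, 1241 and 1038 in WT8, against 1572, 1115 and 430 in PRC3, which overlap. Its log2 difference without blocks was 0.55 (SE 0.38), with an adjusted p of 0.56 in limma. With 1 replicate block for all arrays, the SE was 0.26 and the adjusted p 0.271 in limma. With separate blocks for the sublines and the other groups, the SE was 0.18 and the adjusted p 0.0623 in limma. That setting was chosen after seeing the data. None of the 8 genes was called in either blocked fit, while separate blocks called 3151 probe sets, against 1597 without blocks.

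WT8 replicate 3, the array with the raised 3′ over 5′ ratios, held the lowest signal of its group for PGD, at 568, 454 and 225 in WT8, against 558, 506 and 407 in PRC3. It was also lowest for TKT, at 1617, 1717 and 1074 in WT8, against 1820, 1805 and 1614 in PRC3. PRC3 replicate 3 was the lowest of its group as well, and same-numbered arrays of WT8 and PRC3 deviated together, so both arrays numbered 3 were also left out as a pair, a setting added after seeing the data. The PGD difference was -0.33 on the log2 scale with all arrays, -0.067 without the pair and 0.061 without WT8 replicate 3 alone. The TKT difference was -0.28, -0.12 without the pair and -0.065 without WT8 replicate 3 alone.

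IDH2 measured 604, 387 and 249 in WT8, against 643, 455 and 259 in PRC3, lower in WT8 in 3 of 3 same-numbered pairs. TKT was also lower in 3 of 3, while TALDO1, ME1 and IDH1 were higher in 3 of 3. Some pairs differed little, by 0.015 for TALDO1, -0.057 for IDH2 and -0.072 for TKT on the log2 scale. How often all probe sets keep the same direction in 3 of 3 pairs was not counted, so these counts only describe the arrays. The IDH2 log2 difference was -0.13 with all arrays, -0.16 without the pair and 0.19 without WT8 replicate 3 alone. The PGLS difference was -0.19, -0.095 without the pair and 0.0096 without WT8 replicate 3 alone. The IDH1 difference of 0.55 was 0.18 without the pair. None of these values was called, and the part of RNA quality in them was not tested.

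**Figure D4:**
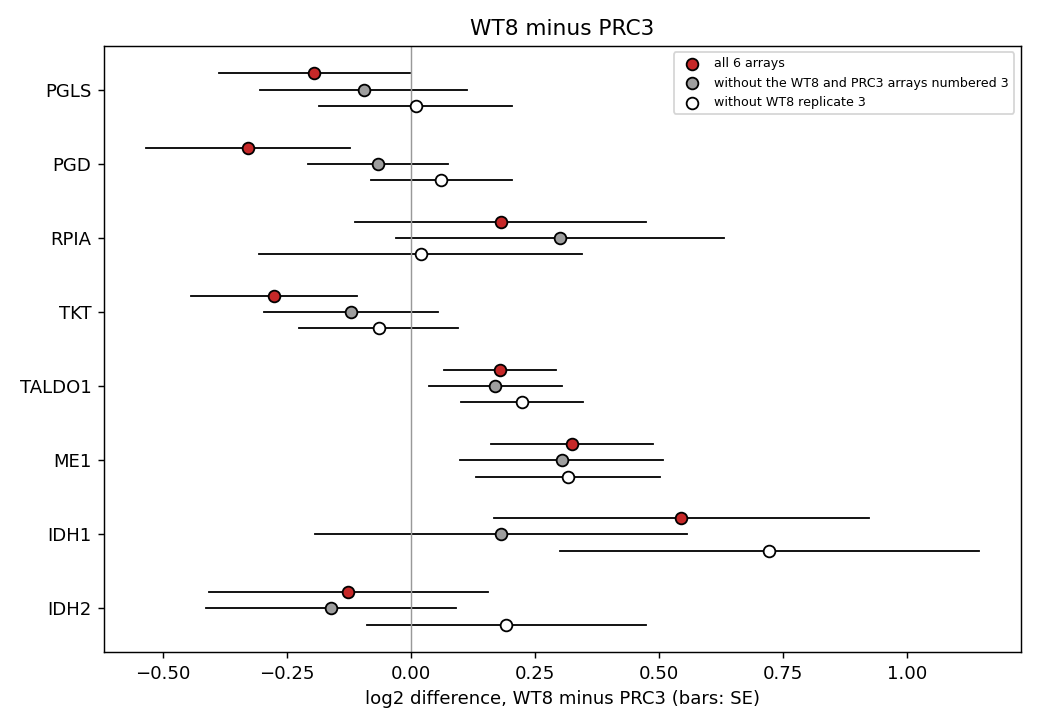
Log2 difference, WT8 minus PRC3, of the 8 genes (bars: SE from limma), with all 6 arrays (red), without both arrays numbered 3 (grey) and without WT8 replicate 3 alone (open). PGD stands at -0.33, -0.067 and 0.061 and IDH2 at -0.13, -0.16 and 0.19, so both pass 0 only where WT8 replicate 3 is left out without its PRC3 partner, and no point is called in any of these fits.

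The vehicle and the subline control were each read against Blk. For DMSO against Blk none of the 8 genes was called, with log2 differences from -0.18 for RPIA to 0.21 for ME1. Across the table limma called 0 probe sets in that comparison, and 794 had an unadjusted p below 0.05. PRC3 against Blk also gave no call among the 8 genes, against 1.03% of all probe sets, 0.617% called lower. TALDO1 came closest, at 1108, 1250 and 1052 in PRC3, against 1538, 1575 and 1548 in Blk. The groups did not overlap, the log2 difference was -0.45 (SE 0.11), and the adjusted p was 0.0512 in limma. PGD measured 558, 506 and 407 in PRC3, against 741, 639 and 566 in Blk, with a log2 difference of -0.41 and an adjusted p of 0.479.

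pTR and pTV had 1 array each, so their differences have no replicate check. RPIA measured 77.1 on pTR, below all 24 replicated arrays, and 147 on pTV. IDH1 measured 1468 on pTR and 949 on pTV. These were 2 of the 8 genes at least 1.5-fold apart in either direction, where 30.8% of all probe sets were. PGLS and IDH2, at 569 and 694 on pTR, were above the highest of the 24 replicated arrays, 492 and 643, and measured 458 and 581 on pTV.

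The order of group means, taken on the log2 scale, differed between the genes. For PGD it ran from compound 76 through 40, 41 and 77 to DMSO, Blk, PRC3 and WT8, and only DMSO and Blk, and PRC3 and WT8, overlapped as neighbours. For TKT and TALDO1 compounds 40, 41 and 76 filled the top 3 places. For TALDO1 these 3 overlapped one another and lay above the fourth group. For TKT compound 76 overlapped both 40 and 41, which did not overlap each other, and 1 compound 76 array reached into the range of PRC3, the fourth group. For ME1 the 4 compounds led, and neighbours overlapped in every step except WT8 over DMSO. For PGLS, RPIA, IDH1 and IDH2 every pair of neighbouring groups overlapped, though IDH2 with compounds 41 and 76 lay below all DMSO arrays. How often groups overlap over all probe sets was not counted, so the overlaps here and above only describe the arrays.

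Other genes were ranked by the Pearson correlation of their log2 signal with each of the 8 over the 24 replicated arrays, among 4537 genes with a mean at or above the 70th percentile. These values describe arrays that share groups and replicate numbers, and carry no test. The 3 genes most like PGD were KEAP1, which encodes the inhibitor of NRF2, at 0.900, NQO1, an NADPH-using quinone reductase, at 0.896, and AKIRIN2 at 0.894. Most like ME1 were the ferritin pseudogene FTH1P5 at 0.921, ALDH3A2, a fatty aldehyde dehydrogenase, at 0.913, and MGST1, a microsomal glutathione transferase, at 0.906. TALDO1 was most like OSER1 at 0.914, KIAA0930 at 0.900 and UCHL1 at 0.881. TKT was most like EPHX1, the microsomal epoxide hydrolase, at 0.844, UCHL1, a neuronal deubiquitinase, at 0.827, and PGD itself at 0.794.

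The 4 genes that were not called in the fit without blocks had other neighbours. IDH1 was most like CDKN1B at 0.926, IMPA2 at 0.921 and SCD, the stearoyl-CoA desaturase, at 0.915. IDH2 was most like FXYD2, a subunit of the sodium pump, at 0.920, HTRA1, a secreted protease, at 0.896, and MLEC at 0.892. PGLS was most like SREBF2, a regulator of sterol synthesis, at 0.871, ARFGEF1 at 0.820 and HMG20B at 0.809. RPIA was most like FARSA at 0.812, WDR77 at 0.808 and DCTPP1 at 0.805.

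GCLM, the regulatory subunit of glutamate cysteine ligase and an NRF2 target, was taken as one comparator of the oxidative stress response. It averaged 1688 ± 232 with compound 40, 2702 ± 56.8 with 41, 3046 ± 19.4 with 76 and 954 ± 12.6 with 77, against 1014 ± 116 with DMSO (SD, n = 3 each). Its order, 76 over 41 over 40, differed from that of PGD, where 40 stood above 41. GCLM rose 1.66-fold with compound 40, adjusted p = 0.00211 in limma, 2.67-fold with compound 41, adjusted p = 4.39e-08, and 3.02-fold with compound 76, adjusted p = 8.12e-09. With compound 77 the log2 difference was -0.083 (adjusted p = 0.944). In WT8 GCLM rose 1.41-fold over PRC3, adjusted p = 0.0105 in limma, where none of the 8 genes was called.

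Of 21 other genes of the pentose phosphate pathway and NADPH supply, all kept by the filter, none was called higher with any compound. That filter lies near the floor, as array medians before normalisation were 20.2 to 27.4. A kept gene may be barely detected, and the absence of a call then says little. With compound 41 and with compound 76, 2 of 21 were called lower, with compound 77 1 of 21, and with compound 40 0 of 21. Of all probe sets 0.34%, 1.17%, 0.748% and 0.123% were called higher with compounds 40, 41, 76 and 77. Called lower were 1.37% with 41, 0.605% with 76 and 0.0486% with 77. At shares this low, the lack of a call higher does not set these 21 genes apart. The median log2 differences were -0.0040 with compound 40, 0.0088 with 41, 0 with 76 and -0.0063 with 77. PRPS2, which makes phosphoribosyl pyrophosphate from ribose 5-phosphate, fell by 0.71 with compound 41, 0.89 with 76 and 0.91 with 77, at adjusted p of 0.0455, 0.0147 and 0.0462 in limma. MTHFD1, a folate enzyme with an NADP-dependent dehydrogenase, averaged 360 ± 30.5 with compound 41 and 361 ± 11.1 with compound 76, against 505 ± 32.3 with DMSO (SD, n = 3 each), at adjusted p of 0.0201 and 0.0337 in limma. In WT8 against PRC3, 1 of the 21 was called higher and 2 lower, against 2.35% and 2.21% of all probe sets. MTHFD1 fell there by 0.45 on the log2 scale, adjusted p = 0.0232 in limma. NADK, the kinase that makes NADP, fell by 0.63, adjusted p = 0.0252 in limma. ALDH1L2, a mitochondrial folate dehydrogenase, was called higher in WT8, at 33.9 ± 7.54, against the floor of 20 on all 3 PRC3 arrays, adjusted p = 0.00129 in limma. The 3 subunits of the NAD-dependent isocitrate dehydrogenase, IDH3A, IDH3B and IDH3G, had 0 calls with each of the compounds.

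Enzymes that spend NADPH were described in the same way from a list of 18. Of these, 15 had a single-gene probe set and 14 were kept by the filter. The genes described here and all lists were chosen with earlier results of these data known. Their counts are therefore no test of enrichment. With each of compounds 40, 41 and 76, 9 of the 14 were called higher and 0 lower, against 0.34%, 1.17% and 0.748% of all probe sets, at median log2 differences of 0.99, 1.21 and 1.27. With compound 77 it was 2 of 14, against 0.123% of all probe sets, at a median of 0.26. The 9 were TXNRD1, AKR1B10, AKR1C1, AKR1C2, AKR1C3, CBR1, PTGR1, BLVRB and POR, reductases of thioredoxin, carbonyls, alkenals, biliverdin and cytochrome P450. The AKR1C genes are near-identical in sequence, so their probe sets may share signal. TXNRD1, the cytosolic thioredoxin reductase, averaged 3988 ± 310 with compound 40, 5481 ± 114 with 41 and 5486 ± 309 with 76, against 2286 ± 301 with DMSO (SD, n = 3 each). AKR1B10, an aldo-keto reductase, averaged 2302 ± 888 with compound 40, 3558 ± 1036 with 41 and 4670 ± 1111 with 76, against 156 ± 63.4 with DMSO. PTGR1 and BLVRB were the pair called with compound 77, 2.84-fold and 3.12-fold higher at adjusted p of 0.00146 and 0.0107 in limma, where PGD, TKT, TALDO1 and ME1 were not. In WT8 against PRC3, 3 of the 14 were called higher, AKR1C3, CBR1 and PTGR1, against 2.35% of all probe sets. PTGR1 was also called in PRC3 against Blk, where it fell by 1.06 on the log2 scale and 0.617% of all probe sets were called lower.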

How the data were processed

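The deposited table gives linear signal intensities of 54675 probe sets on 26 arrays. The submitters' processing notes name MAS5, with no version. The 62 control probe sets were left out, which left 54613. Intensities were quantile normalised over 26 arrays, set to at least 20 and at most 16000, the limits the labels state, and converted to log2. A probe set was kept if it reached its array's median on 3 or more of the 24 replicated arrays (35013 did). Symbols came from the platform annotation, updated through RefSeq. Where a gene had several kept probe sets, the one brightest on average over the 24 arrays stands for it.

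limma 3.58.1 in R 4.3.3 (lmFit, eBayes with trend) fitted 8 groups of 3 arrays with 16 residual degrees of freedom, and was tested on simulated data. The number of arrays limits the precision. Alternatives were other scalings, filters and floors, a replicate block, leaving out arrays, and second probe sets. Replicate numbers come from the titles; deviations of same-numbered arrays correlated at 0.172 to 0.206 for compound 41 and DMSO, 0.184 to 0.275 for 76 and DMSO, 0.107 to 0.457 for WT8 and PRC3, 0.146 to 0.293 for DMSO and Blk, and 0.105 to 0.188 for 41 and 76, which was taken as pairing; elsewhere at least 1 was under 0.1. The 8 genes and the lists were chosen with earlier results of these data known. Named were the 8 genes, called members of the lists, GCLM and the 3 genes most like each of the 8.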

Additional observations from a re-analysis of the deposited data

How the results depend on the processing

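Of 904 values of single genes under an alternative, 845 kept their side of the threshold, 46 lost a call, 13 gained one and 0 called values changed sign; of 747 not called under either, 38 changed sign. With compound 40, 4 genes were called, but 1 under median scaling, without the filter, without the trend or with the second probe set, and 0 from 2 groups alone or without its replicates 2 and 3, and 0 to 3 when one array was left out. With compound 41, 3 were called, 1 from 2 groups alone or the second probe set, 5 with the replicate block within each cell set, and 0 to 3 when one array was left out. With compound 76, 2 were called, 1 from 2 groups alone or the second probe set, 5 with that block, and 2 to 3 when one array was left out. For PRC3 against Blk, TALDO1 made the count 1 with a filter at all 24 arrays, a floor of 50, the replicate block over all arrays, or without compound 40 replicates 2 and 3. Over the 6 compound pairs 5 were called, 3 under median scaling, without compound 40 replicates 2 and 3 or with the second probe set, 1 from 2 groups alone, 10 with the block within each cell set, and 4 to 6 when one array was left out. The second probe set of PGD is near the floor. The cause of the other changes was not tested. The median of pTR against pTV was 0.26 and 0.56 under median scaling. No count of the 8 genes changed for compound 77, WT8 against PRC3 or DMSO against Blk.

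All probe sets called with the replicate block over all arrays numbered 534, against 240 without it, for compound 40, 1525 against 889 for 41, 849 against 474 for 76, 175 against 60 for 77, and 697 against 362 for PRC3 against Blk. With the block within each cell set they were 1102, 2335, 1396 and 499 for compounds 40, 41, 76 and 77, and 3151, against 1597, for WT8 against PRC3. Leaving out one array gave 1006 to 1869 for WT8 against PRC3 and 151 to 311 for PRC3 against Blk. Fitting 2 groups alone called 6, 374, 126 and 0 for compounds 40, 41, 76 and 77, and 19 and 0 for WT8 against PRC3 and PRC3 against Blk, where 1597 and 362 were called. The share called higher with compound 40 was 49.6% as reported and 72.0% of calls on signals as deposited; with compound 41 it was 46.2% and 58.9% under median scaling, with 76 55.3% and 65.6%, and for WT8 against PRC3 51.5% and 37.3%. For PRC3 against Blk it was 40.3% and 52.4% as deposited.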
